A study of Mus musculus with 15 samples.

Results

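The endocannabinoid receptor and the enzymes that make and break its lipid ligands were examined as 8 genes chosen by symbol: the receptor Cnr1, the synthetic enzymes Dagla, Daglb and Napepld, and the hydrolases Faah, Mgll, Abhd6 and Abhd12. All 8 were found among the 26145 genes of the count matrices. The study dissociated the prefrontal cortex of C57BL/6N male mice and sequenced single cells, with 2 mice pooled in a library. There were 3 libraries of 3-week-old mice (P21) and 12 libraries of mice labelled as 8 to 10 weeks old (P60). The P60 mice carried an intravenous catheter and self-administered cocaine or saline, and their tissue was taken during maintenance of self-administration, after 48 h of withdrawal or after 15 days of withdrawal, with 2 libraries for each treatment at each of these Periods. The P60 mice were food restricted before training. The P21 mice were untreated. The comparison of P21 with the 6 saline libraries of P60 therefore differs in age, catheter surgery, food restriction and operant training together. These cannot be told apart. The paper matched P21 cells to P60 clusters by rank correlation, to limit a bias from different sequencing technologies. Such a technical difference would enter this comparison too. The unit of replication was a library, so every p-value refers to the spread between libraries. The methods name 4 mice for P21, fewer than 3 pools of 2 would need, so some P21 libraries may share mice, and the error of the age comparison may then be in part technical. The tissue was labelled prefrontal cortex in the sample titles and sources, and NAc in another tag of every sample.

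Endocannabinoids are lipids that neurons make on demand from membrane phospholipids and that travel backwards across the synapse. The postsynaptic cell releases them, and they bind the receptor CB1, the product of Cnr1, on presynaptic terminals, where they reduce transmitter release. The ligand 2-arachidonoylglycerol is made by the diacylglycerol lipases and is hydrolysed mainly by monoacylglycerol lipase, whereas anandamide is hydrolysed by fatty acid amide hydrolase. In the cortex CB1 is best known from the terminals of interneurons that contain cholecystokinin.

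Coordinates of the members were read from the NCBIM37 annotation (mm9), the build named in the submitters' processing notes. Cnr1 (ENSMUSG00000044288) lies on the plus strand at chr4:34011568-34035806. Dagla (ENSMUSG00000035735) encodes diacylglycerol lipase alpha on the minus strand at chr19:10319755-10379367, and Daglb (ENSMUSG00000039206) encodes diacylglycerol lipase beta on the plus strand at chr5:144225361-144265310. Napepld (ENSMUSG00000044968), for the phospholipase D that forms N-acylethanolamines such as anandamide, lies on the minus strand at chr5:21168719-21207214 and overlaps a pseudogene on the other strand. Faah (ENSMUSG00000034171), for fatty acid amide hydrolase, lies on the minus strand at chr4:115639750-115690531. Mgll (ENSMUSG00000033174), for monoacylglycerol lipase, lies on the plus strand at chr6:88674406-88778354 and overlaps a lincRNA on the other strand. Abhd6 (ENSMUSG00000025277) lies on the plus strand at chr14:8835416-8889069 and Abhd12 (ENSMUSG00000032046) on the minus strand at chr2:150658229-150730477. Both encode alpha/beta hydrolases that also cleave 2-arachidonoylglycerol, and ABHD12 is besides a lysophosphatidylserine lipase.

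The promoters of Cnr1 and Mgll are shown because these 2 genes had the widest ranges of mean level across the cell classes. RefSeq windows of 300 bases, 250 before and 50 after an annotated start (GRCm38.p6), were matched for 6 of the 8 members. RefSeq has 3 such windows for Cnr1 and 2 for Mgll, and the 1 of each that was chosen for printing holds the E-box hexamer CACGTG, in capitals, which reads the same on both strands. The other windows of both genes lack it. It was searched for after the sequences had been read, and it occurs in 2349 of 32851 RefSeq windows of this length (7.15%), so the match is a description only. The Cnr1 window lies at chr4:33924394-33924693 on the plus strand and has 69% G and C with 33 CpG dinucleotides. The Mgll window lies at chr6:88724162-88724461 on the plus strand and has 70% G and C with 32 CpG dinucleotides, against a median of 52.67% G and C over all windows. The gene counts do not tell which annotated start was used.
Cnr1: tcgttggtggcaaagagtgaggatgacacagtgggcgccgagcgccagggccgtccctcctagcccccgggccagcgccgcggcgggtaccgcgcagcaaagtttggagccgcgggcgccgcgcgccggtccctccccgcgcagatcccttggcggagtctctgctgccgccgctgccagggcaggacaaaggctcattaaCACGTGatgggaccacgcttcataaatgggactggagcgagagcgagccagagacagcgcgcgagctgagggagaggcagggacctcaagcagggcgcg
Mgll: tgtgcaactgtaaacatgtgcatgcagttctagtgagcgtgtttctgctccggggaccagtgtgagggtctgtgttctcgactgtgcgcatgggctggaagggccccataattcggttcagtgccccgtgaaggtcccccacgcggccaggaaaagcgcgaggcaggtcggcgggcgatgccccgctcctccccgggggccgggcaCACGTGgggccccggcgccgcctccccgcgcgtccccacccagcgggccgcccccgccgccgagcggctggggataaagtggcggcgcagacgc

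Values are counts of unique molecular identifiers (UMIs, one per captured RNA molecule), summed over the cells of one type in one library and divided by all UMIs of those cells, as counts per 1000000 (CPM). The 35360 cells the authors kept, 24822 of P60 and 10538 of P21, were grouped by the deposited cluster names into 8 classes and into 26 excitatory (Exc-1 to Exc-26) and 12 inhibitory (Inhib-1 to Inhib-12) neuron clusters. Libraries held 8375172 to 42892922 UMIs, with medians of 3426 to 11334.5 UMIs per cell. The 4 libraries of 15 days were among the deepest, so Period and depth cannot be told apart. By the paper's timeline, catheters were implanted at P60, so tissue was taken at later ages, the latest after 15 days of withdrawal. Period and age at harvest cannot be told apart either. P21 library 1 held 40972771 UMIs against 19765973 and 21149153 in the other P21 libraries, and results that rest on it are given with and without it. No pair of libraries shared more than 40 cell barcodes. Marker genes fitted the class names, with the exception that the class named endothelial also carried mural cell markers, at a summed 3973 to 7363 CPM in its libraries. The neuronal transcript Snap25 was found in every non-neuronal class, at 35.0 to 1518 CPM in P60 astrocytes and 55.2 to 1296 CPM in P60 microglia against 3844 to 5241 CPM in excitatory neurons, so low levels of neuronal genes in glia cannot be told apart from free RNA.

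The receptor gene Cnr1 was highest in inhibitory neurons at P60. Over the 12 P60 libraries its lowest, median and highest values were 536.5, 938.3 and 2229.6 CPM in inhibitory neurons, and 110.3, 135.7 and 171 CPM in excitatory neurons. The groups did not overlap, and the means were 1096 ± 494 CPM and 137 ± 19.6 CPM (SD, n = 12). The inhibitory value was the higher one in 12 of 12 libraries (two-sided exact paired permutation test by sign flips, p = 0.00048828, the smallest that 12 pairs can give; 0.00684 after Benjamini-Hochberg adjustment over the 56 pairs of neighbouring classes of the 8 genes). Excitatory neurons stood above oligodendrocyte precursors, at 25.4 ± 17.4 CPM, in 11 of 11 libraries (adjusted p = 0.00684, same exact test). Below these, astrocytes had 24.7, microglia 18.4, endothelial cells 8.52, mature oligodendrocytes 6.37 and newly formed oligodendrocytes 6.18 CPM on average. In mature oligodendrocytes the 4 libraries of 15 days had 10.9 to 18.4 CPM of Cnr1 and the other 8 had 0 to 4.41 CPM, without overlap, and Snap25 was also higher there in these libraries, at 274 to 489 CPM against 48.6 to 179 CPM. Its part in the Cnr1 values was not tested. None of these neighbouring classes differed beyond its spread (adjusted p of 0.226 to 0.865, same exact test). The order was the same at P21 for the first 2 classes, with 1144 ± 195 CPM in inhibitory neurons and 129 ± 24.2 CPM in the excitatory class (SD, n = 3).

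**Figure D1:**
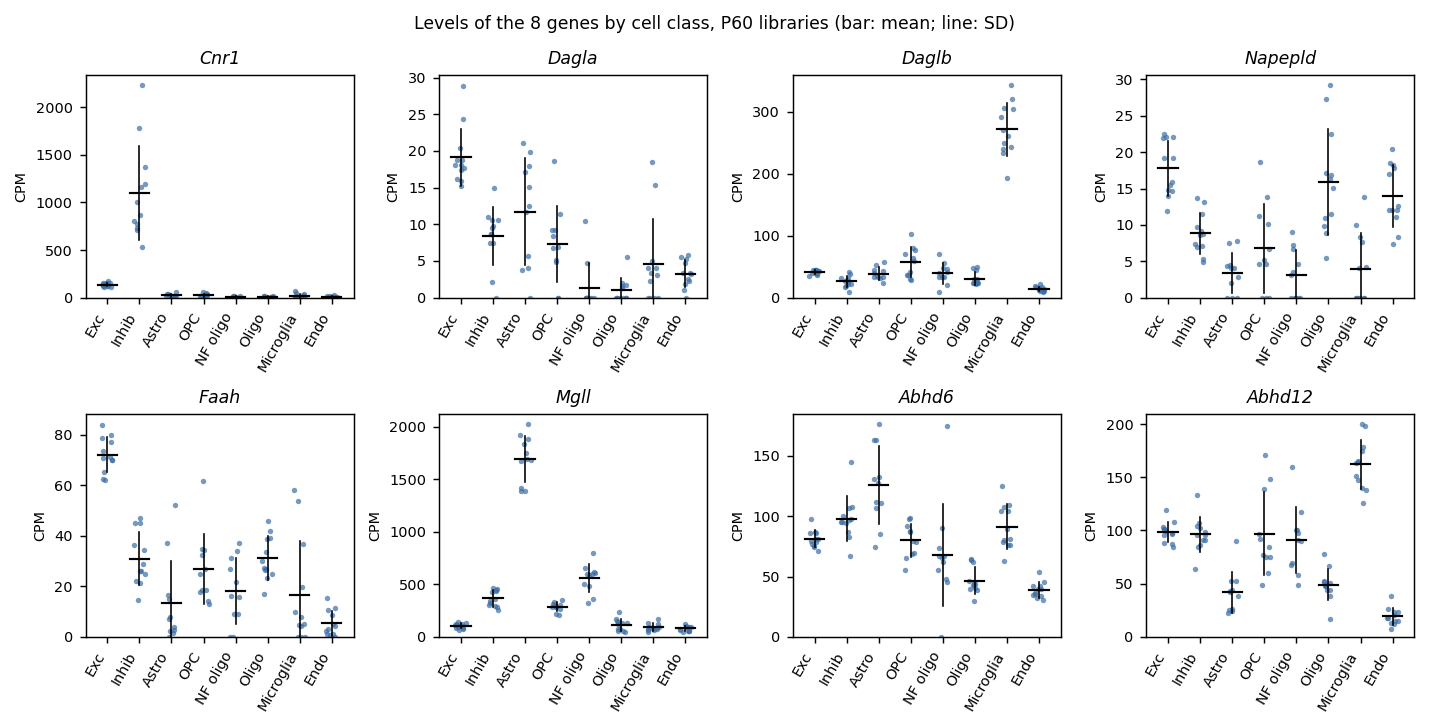
Level of each of the 8 genes (CPM, linear axis from 0, 1 panel per gene) by cell class at P60. Points are libraries, bars are means and lines are SDs over 11 or 12 libraries. Inhibitory neurons lead for Cnr1, microglia for Daglb and Abhd12, and astrocytes for Mgll.

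Excitatory cells were deeper, with a median of 12456 UMIs against 7192 in inhibitory neurons, and shares of cells with a Cnr1 UMI moved with this depth. They were 65.2% of inhibitory and 60.4% of excitatory cells as deposited, and 42.8% and 20.2% after cells had been thinned to 2000 UMIs. Cells with fewer UMIs were left out of thinned values. All 1191 inhibitory cells of P60 and 933 of 962 of P21 entered, and thinned shares in glia rest on the deeper cells. In mature oligodendrocytes, with a median of 3240.5 UMIs, the share was 2.53% as deposited and 1.21% after thinning. Both neuron classes were above this background.

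Within inhibitory neurons Cnr1 was concentrated in a small share of cells. The clusters Inhib-10, Inhib-11 and Inhib-12 held 139 of 1191 inhibitory cells at P60 (11.7%) and 65.3% of the Cnr1 UMIs of the class. Their pooled level was 4264 CPM, against 372 CPM in the other inhibitory cells. At P21 these clusters held 113 of 962 cells (11.7%) and 79.3% of the UMIs, at 6678 CPM against 268 CPM outside. The authors' clusters were made from the expression of these same cells, so levels by cluster are given as descriptions, without a test between clusters.

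By cluster, Cnr1 at P60 was highest in Inhib-12 with 5502 CPM over 30 cells (exact Poisson 95% interval 5272 to 5739, which covers counting error only). Inhib-11 followed with 4623 CPM over 47 cells and Inhib-10 with 2772 CPM over 62 cells (2619 to 2931). Then came Inhib-5 with 1299.7, Inhib-9 with 899.9, Inhib-3 with 850.4, Inhib-4 with 550.2 and Inhib-2 with 256 CPM. The lowest levels of Cnr1 were 126.5 in Inhib-7, 92.1 in Inhib-8, 58.3 in Inhib-1 and 51.9 CPM in Inhib-6, which lie within the range of the excitatory clusters.

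The marker genes place these clusters. Cck, which encodes the neuropeptide cholecystokinin, was highest in the same 3 clusters, with 12666 CPM in Inhib-11, 4954 in Inhib-10 and 4741 in Inhib-12. Vip, for vasoactive intestinal peptide, reached 6094 CPM in Inhib-10 and 3707 in Inhib-11 but 8 CPM in Inhib-12, and its highest levels were 19297 in Inhib-4 and 17734 in Inhib-9. Inhib-1 and Inhib-2 carried Sst (somatostatin) at 40338 and 22921 CPM, Inhib-6 carried Pvalb (parvalbumin) at 1611 CPM, and Inhib-7 and Inhib-8 carried Npy (neuropeptide Y) at 29563 and 15968 CPM. The lowest Cnr1 levels were thus in clusters marked by Sst, Pvalb or Npy.

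**Figure D2:**
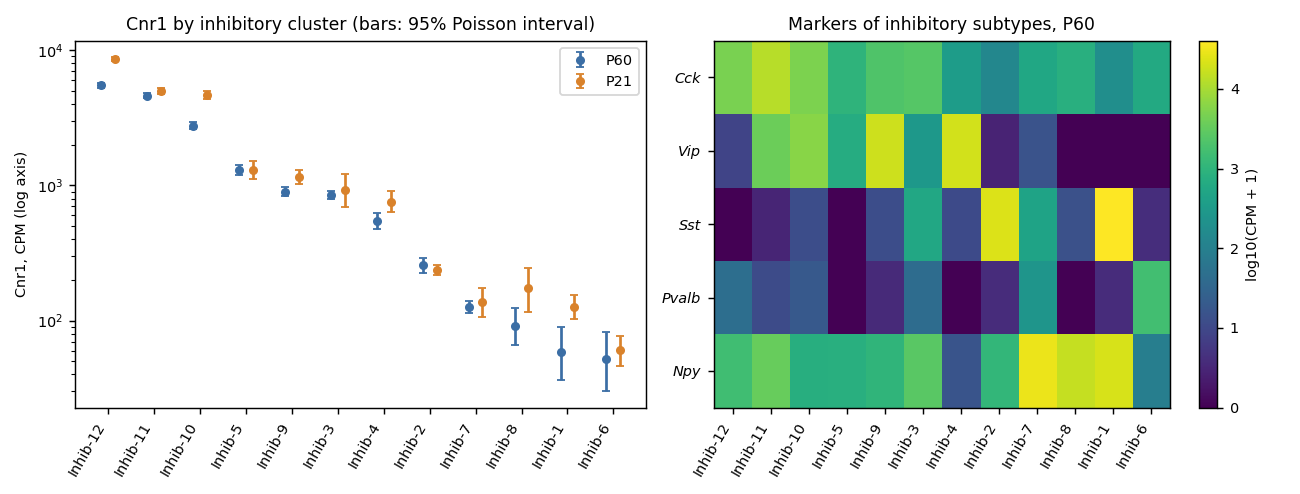
Left, Cnr1 level (CPM, log axis) in each of the 12 inhibitory clusters at P60 (blue) and P21 (orange), pooled over libraries, with exact Poisson 95% intervals. Right, log10(CPM + 1) of 5 interneuron markers in the same clusters at P60. The 3 clusters with the highest Cnr1, from 2772 to 5502 CPM at P60, are those with the highest Cck.

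Single cells showed the same concentration. After thinning to 2000 UMIs, 119 inhibitory cells, the top 10% by Cnr1 at P60, held 61.3% of the Cnr1 UMIs, and 57.2% of the inhibitory cells had none. A count of 5 or more Cnr1 UMIs was found in 135 inhibitory cells (11.3%) and in 1 of 14443 excitatory cells. At P21 the top 93 cells held 73.2%, and 111 cells (11.9%) had 5 or more UMIs, against 3 of 5885 excitatory cells.

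The spread of Cnr1 between libraries in inhibitory neurons moved with how many cells of these 3 clusters each library held. Their share of inhibitory cells ranged from 3.95% to 35.7% at P60. The highest was in library 3 (saline, maintenance), with 10 of 28 cells, which was also the library with 2229.6 CPM. Without the 3 clusters the P60 libraries had 209 to 578 CPM, and library 3 had 557 CPM. Cell numbers and RNA per cell both enter a class sum of this kind.

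Excitatory clusters differed in Cnr1 as well. Exc-14 had 271, Exc-15 256, Exc-7 255, Exc-16 244, Exc-25 231 and Exc-6 222 CPM, against a median of 85.6 CPM over the 26 clusters at P60. The lowest 4 were Exc-18 with 15.6, Exc-19 with 16.6, Exc-20 with 19.0 and Exc-21 with 25.9 CPM of Cnr1. Of these, Exc-18, Exc-19 and Exc-20 carried the deep-layer transcription factor Foxp2 at 121, 150 and 170.1 CPM, and Exc-21 carried Etv1 at 696.5 and Fezf2 at 262 CPM, both markers of layer 5 projection neurons. In Exc-14 the libraries ran from 228.5 to 344 CPM of Cnr1 at P60, and in Exc-19 from 0 to 45.6 CPM (n = 12), so these 2 clusters did not overlap.

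Dagla, whose product is the main source of 2-arachidonoylglycerol at cortical synapses, was low throughout. It was highest in excitatory neurons, where the P60 libraries had 15.2, 18.1 and 28.9 CPM (lowest, median, highest) and a mean of 19.1 ± 3.89 CPM (SD, n = 12). Astrocytes followed with 11.7 ± 7.27 CPM (n = 11), below excitatory neurons in 9 of 11 libraries (adjusted p = 0.0379, exact sign-flip permutation test). The ranges of the classes overlapped. Inhibitory neurons had 8.40 and oligodendrocyte precursors 7.31 CPM on average, and mature oligodendrocytes had 5 Dagla UMIs in all (1.02 CPM). Among excitatory clusters Dagla was even, from 13.3 CPM in Exc-17 to 25.5 CPM in Exc-23.

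Daglb, the second diacylglycerol lipase, had its highest level in microglia. The P60 libraries had 193.5, 266 and 343 CPM there (lowest, median, highest), with a mean of 271 ± 42.7 CPM (SD, n = 12). Oligodendrocyte precursors came next with 56.9 ± 24.2 CPM, lower in 11 of 11 libraries (adjusted p = 0.00684, exact sign-flip permutation test). Excitatory neurons (41.6 ± 3.56 CPM), newly formed oligodendrocytes (39.0), astrocytes (38.8), mature oligodendrocytes (30.5) and inhibitory neurons (26.1) followed, and no pair of neighbours among these 5 classes differed beyond its spread. Endothelial cells were lowest for Daglb at 14.4 ± 3.66 CPM, below inhibitory neurons in 10 of 12 libraries (adjusted p = 0.0149, same exact test). After thinning, 44.5% of P60 microglia and 5.15% of mature oligodendrocytes had a Daglb UMI, against 53.5% and 9.95% as deposited, at median depths of 2455.5 and 3240.5 UMIs. At P21 microglia also led, with 238 ± 33.1 CPM (SD, n = 3). The pair of diacylglycerol lipases thus differed in where they were highest, Dagla in excitatory neurons and Daglb in microglia. The neuron clusters with the highest Daglb were Exc-1 and Exc-2, with 66.0 and 65.3 CPM, and the lowest excitatory cluster was Exc-21 with 17.9 CPM.

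Napepld was low in every class. Excitatory neurons had 11.9, 17.5 and 22.5 CPM (lowest, median, highest of 12 P60 libraries; mean 17.8 ± 3.77, SD), mature oligodendrocytes 15.9 ± 7.33 CPM and endothelial cells 13.9 ± 4.28 CPM, and these 3 classes did not differ beyond their spread. Endothelial cells were above inhibitory neurons, at 8.86 ± 2.83 CPM, in 10 of 12 libraries (adjusted p = 0.0205, exact sign-flip permutation test). Inside the excitatory class the gene was uneven. Napepld had 43.4 CPM in Exc-4, 38.8 in Exc-3, 35.8 in Exc-5, 31.3 in Exc-1, 28.8 in Exc-2 and 25.5 in Exc-9, and at most 16.7 CPM in any other neuron cluster at P60. The same 6 clusters had the highest levels of the upper-layer marker Calb1 among excitatory clusters, from 262 to 322 CPM.

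Faah, which ends anandamide signalling and is known from postsynaptic principal neurons, was highest in excitatory neurons. The P60 libraries had 62.3, 71.2 and 83.9 CPM (lowest, median, highest; mean 72.2 ± 6.88, SD, n = 12). Mature oligodendrocytes followed with 31.3 ± 8.62 CPM, lower in 12 of 12 libraries (adjusted p = 0.00684, exact sign-flip permutation test), and inhibitory neurons with 31.0 CPM. The range over excitatory clusters was narrow, from 43.9 CPM in Exc-21 to 102 CPM in Exc-4, and inhibitory clusters ran from 11.1 CPM in Inhib-1 to 63.6 CPM in Inhib-8. In 3 non-neuronal classes Faah was higher in the 15-day libraries than in every other P60 library. These 4 libraries had 19.9 to 58.4 CPM in microglia against 0 to 9.89 CPM elsewhere, 15.1 to 52.3 CPM in astrocytes against 0 to 7.95 CPM, and 8.50 to 15.3 CPM in endothelial cells against 0 to 5.04 CPM. The same held in inhibitory neurons, with 36.5 to 47.0 CPM at 15 days and 14.6 to 34.4 CPM in the other P60 libraries. Snap25 moved the same way in endothelial cells, at 249 to 392.2 CPM in the 15-day libraries and 32.7 to 211 CPM in the others, and its part in the Faah values was not tested.

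Mgll showed the widest range across glia. Astrocytes had 1384, 1689 and 2022 CPM (lowest, median, highest of 11 P60 libraries), and newly formed oligodendrocytes followed. The means were 1694 ± 220 CPM and 559 ± 134 CPM (SD, n = 11), without overlap and higher in astrocytes in 11 of 11 libraries (adjusted p = 0.00684, exact sign-flip permutation test). Inhibitory neurons came next with 254, 352 and 464 CPM (mean 367 ± 77.0 CPM), below newly formed oligodendrocytes in 10 of 11 libraries (adjusted p = 0.0149, same exact test). Oligodendrocyte precursors had 288 ± 43.2 CPM and mature oligodendrocytes 117 ± 57.5 CPM, and precursors were the higher ones in 11 of 11 libraries (adjusted p = 0.00684, same exact test). Excitatory neurons had 105 ± 23.8, microglia 93.5 and endothelial cells 81.4 CPM, not different from their neighbours beyond their spread. In excitatory neurons the 15-day libraries had 123.9 to 144.3 CPM of Mgll and the other P60 libraries 68.8 to 110.3 CPM, without overlap. The part of depth was not tested. Newly formed oligodendrocytes had 323 to 797 CPM of Mgll over the P60 libraries and mature ones 47.7 to 238 CPM, without overlap. After thinning, 90.9% of astrocytes and 14.7% of endothelial cells had a Mgll UMI (96.7% and 27.2% as deposited, at median depths of 3211 and 3870 UMIs).

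The inhibitory clusters with the highest Mgll were not those with the highest Cnr1, except for Inhib-12. Inhib-8 had 732, Inhib-7 601, Inhib-12 534 and Inhib-11 332 CPM of Mgll, and Inhib-10 had 83.3 CPM, the lowest of the 12. Among excitatory clusters Exc-10 and Exc-22 had the highest Mgll at P60, with 222 and 209 CPM, and Exc-26 and Exc-21 the lowest, with 28.6 and 34.1 CPM. Inhib-7 and Inhib-8, the Npy clusters with low Cnr1, together held 36.9% of the P60 inhibitory cells and 64.5% of their Mgll UMIs.

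Abhd6 had the narrowest range of class means relative to its level. Astrocytes had 74.8, 127.7 and 175.9 CPM (lowest, median, highest of 11 P60 libraries; mean 126 ± 32.2, SD), inhibitory neurons 97.9 ± 18.5, microglia 91.2, excitatory neurons 81.2 ± 7.05 and endothelial cells 38.9 CPM. No pair of neighbouring classes differed (smallest adjusted p = 0.126, exact sign-flip permutation test). Within inhibitory neurons Abhd6 was highest in the same pair of clusters as Mgll, with 151 CPM in Inhib-8 and 146 CPM in Inhib-7, and lowest in Inhib-1 with 22.2 CPM.

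Abhd12 was highest in microglia, with 126.2, 164.1 and 199.9 CPM (lowest, median, highest of 12 P60 libraries; mean 162 ± 23.0, SD). Excitatory neurons followed with 98.7 ± 9.43 CPM, lower in 12 of 12 libraries (adjusted p = 0.00684, exact sign-flip permutation test). Precursors, inhibitory neurons and newly formed oligodendrocytes had 97.1, 96.2 and 91.1 CPM, and no pair of neighbours among excitatory neurons and these 3 classes differed beyond its spread. Mature oligodendrocytes had 49.0 CPM, below newly formed ones in 10 of 11 libraries (adjusted p = 0.0122, same exact test), and endothelial cells were lowest with 19.3 CPM, below astrocytes in 11 of 11 (adjusted p = 0.00684, same exact test). Across neuron clusters Abhd12 stayed between 57.0 CPM in Inhib-4 and 157 CPM in Exc-26.

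**Figure D3:**
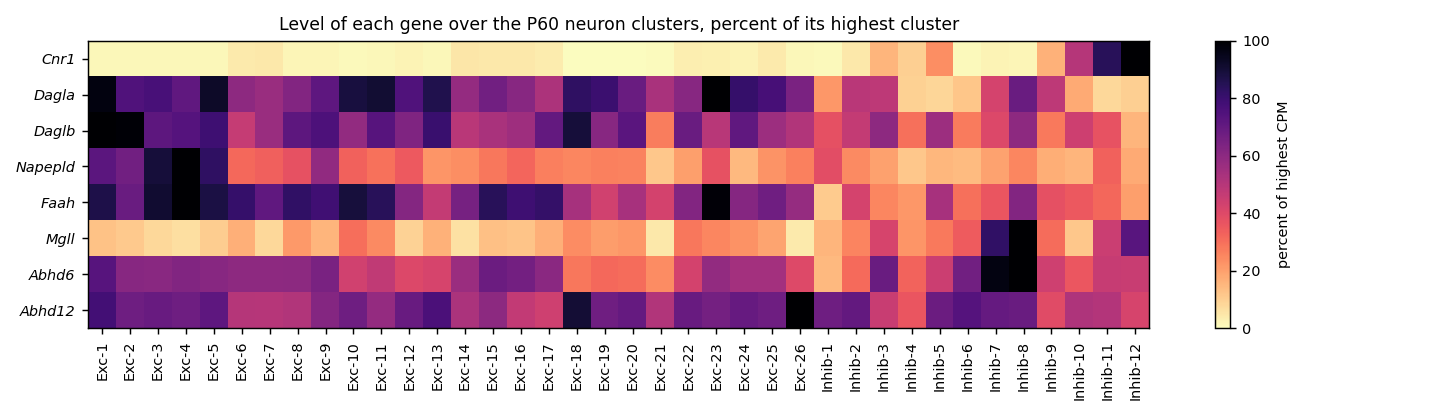
Heat map of the 8 genes (rows) over the 38 neuron clusters at P60 (columns). Colour gives the pooled CPM as a percent of the highest cluster of that gene, so colours cannot be compared between rows. Cnr1 is concentrated in Inhib-10 to Inhib-12 and Napepld in Exc-1 to Exc-5 and Exc-9, while Abhd12 and Faah are spread over most excitatory clusters.

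Of the 56 pairs of neighbouring classes, 13 differed. Neighbours were set by mean CPM in the same P60 libraries, so the pairs and their directions came from the values tested. With the 6 saline libraries alone none passed, where the smallest p the test can give is 0.03125 before adjustment, and the highest class stayed the same for all 8 genes. Across 44 types (the 38 neuron clusters and 6 non-neuronal classes) the members most alike were Dagla and Faah, with a Pearson correlation of log2(CPM + 1) of 0.696. Daglb and Abhd12 followed with 0.556 and Napepld and Faah with 0.549, and Mgll and Napepld were the most opposed with -0.431. Cnr1 had correlations of -0.371 to 0.166 with the other 7. These values describe types that share libraries and differ in depth, and carry no test.

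The genes with patterns most like each member, among 8734 genes compared over the same 44 types, were Slc2a13 (r = 0.843), Ube2e1 (0.812) and Necab1 (0.809) for Cnr1. For Dagla they were Ngef (0.903), Kalrn (0.889) and Arhgap32 (0.877). Those most like Daglb were Psap (0.750), Trem2 (0.749) and Rasgef1b (0.731), of which Trem2 encodes a receptor of microglia. For Napepld they were Mink1 (0.806), Fkbp1a (0.783) and Ubtf (0.732), and for Faah Rabl5 (0.902), Zmat2 (0.895) and Tssc1 (0.895). Fads1 (0.732), Acbd5 (0.716) and Msi2 (0.707) were nearest to Mgll. Abhd6 had Usp2 (0.686), Klhdc8b (0.670) and Sox9 (0.654), and Abhd12 had Fam49b (0.835) and Smap2 (0.765).

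Age was then compared, as the 6 saline libraries of P60 against the 3 of P21. A gene was called where edgeR's quasi-likelihood test gave a Benjamini-Hochberg adjusted p below 0.05 over all genes tested in that class and a fold above 1.5. Of 41 pairs of a member and a class, 3 were called, 1 higher and 2 lower at P60, while 11.9% of all gene and class pairs were called in these 7 classes (4.94% higher and 6.99% lower). Their median log2 fold change was -0.02, and the medians over all genes tested lay between 0.00 and 0.06 in the 7 classes. The members' median absolute log2 fold change was 0.25. Precursors were not tested, since too few P21 libraries held 10 of them. In single classes 19.3% of all genes tested were called in excitatory neurons, 14.0% in inhibitory neurons, 17.8% in mature oligodendrocytes and 12.7% in endothelial cells.

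The largest difference was that of Mgll in mature oligodendrocytes. The 3 P21 libraries had 432, 488 and 475 CPM, and the 6 saline P60 libraries 47.7, 128 and 141 CPM (lowest, median, highest). The groups did not overlap, with means of 465 ± 29.4 CPM (SD, n = 3) and 109 ± 38.5 CPM (SD, n = 6). Mgll fell by 2.19 on the log2 scale (SE 0.23, 4.56-fold, edgeR quasi-likelihood adjusted p = 2.45e-05) and was called under each alternative setting tried. Newly formed oligodendrocytes had 499 ± 67.4 CPM at P21 and 534 ± 132 CPM at P60 in the saline libraries, a difference of 0.08 on the log2 scale (SE 0.20) that did not pass the test.

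The share of mature oligodendrocytes with a Mgll UMI was 80.1% at P21 and 22.8% over all P60 libraries as deposited, at medians of 4820 and 3240.5 UMIs per cell, and 52.7% and 14.2% after thinning. Markers of newly formed oligodendrocytes moved with this difference, at a summed 179 to 200.4 CPM in mature oligodendrocytes of P21 and 57.5 to 163 CPM at P60. Markers of mature oligodendrocytes summed to 14615 to 17601 CPM at P21 and 9529 to 12303 CPM at P60. Astrocyte markers were at 82.2 to 214 CPM and 49.6 to 143 CPM in these cells, against at least 3803 CPM in astrocytes, and their part was not tested. When cells with any UMI of Enpp6 or Bmp4, genes of newly formed oligodendrocytes, were left out (an alternative chosen after the data were seen, with 54.0% to 55.7% of the P21 cells kept), the P21 libraries had 395, 531 and 556 CPM of Mgll, and the saline P60 libraries 43.8 to 195 CPM, again without overlap.

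**Figure D4:**
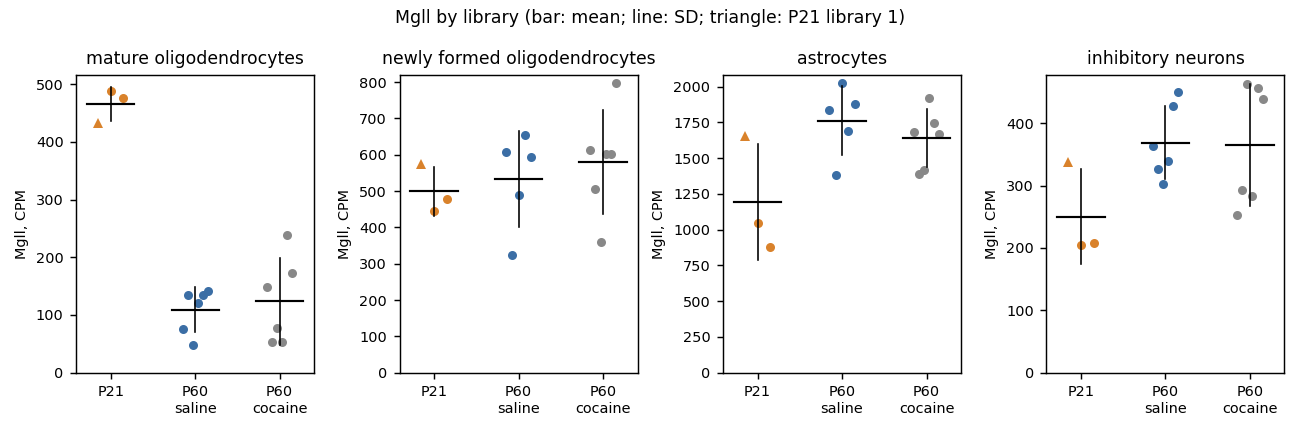
Mgll level (CPM, linear axis from 0) in each library, in mature oligodendrocytes, newly formed oligodendrocytes, astrocytes and inhibitory neurons, for P21, P60 saline and P60 cocaine. The triangle marks P21 library 1. In mature oligodendrocytes the P21 libraries lie at 432 to 488 CPM and the saline P60 libraries at 47.7 to 141 CPM.

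Mgll pointed the other way in 2 further classes without being called. In inhibitory neurons it had 338, 205 and 207 CPM at P21 and 303 to 451 CPM at P60, a difference of +0.55 (log2, SE 0.17, adjusted p = 0.0283, edgeR) that was below the fold cutoff. The value of 338 CPM was that of P21 library 1. Inhib-7 and Inhib-8 made up 36.9% of inhibitory cells at P60 over all libraries and 10.6% at P21, and Mgll was not higher at P60 inside them, with 616 CPM against 799 CPM at P21, while outside them it had 238 against 196 CPM. These clusters made up 20% of inhibitory cells in P21 library 1 and 7.97% and 5.39% in P21 libraries 2 and 3. By library, Mgll outside them had 226, 170 and 187 CPM at P21 and 149 to 341 CPM in the saline libraries, which overlapped. In Inhib-7 alone the difference in Mgll was -0.48 (log2, SE 0.16, adjusted p = 0.096, edgeR). In astrocytes Mgll had 1654, 1046 and 882 CPM at P21 and 1384 to 2022 CPM at P60 (+0.53, SE 0.24, adjusted p = 0.34, edgeR). Without P21 library 1, which had the highest of these P21 values, Mgll was called in both classes, at +0.85 in inhibitory neurons (adjusted p = 0.00034, edgeR) and +0.94 in astrocytes (adjusted p = 0.0266, edgeR). In inhibitory neurons it was also called without saline library 3 (+0.59), 5 (+0.61) or 7 (+0.59) and with at least 30 cells (+0.60), each near the fold cutoff. In astrocytes it was also called with the authors' class column, an alternative chosen after the data were seen (+1.23, adjusted p = 0.00972, edgeR).

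Abhd6 was called in inhibitory neurons and in endothelial cells, in opposite directions. In inhibitory neurons it had 61.4, 55.9 and 70.0 CPM at P21 and 66.8 to 108 CPM in the saline P60 libraries, ranges that overlapped, with means of 62.4 ± 7.13 (SD, n = 3) and 91.1 ± 14.5 CPM (SD, n = 6). It rose by 0.60 on the log2 scale (SE 0.15, adjusted p = 0.00916, edgeR). The same shift in the share of Inhib-7 and Inhib-8 cells stood beside it. Inside these clusters Abhd6 had 147 CPM at P60 and 126.5 CPM at P21, outside them 65.7 and 55.1 CPM, and within Inhib-7 the difference was 0.15 (log2, SE 0.24, adjusted p = 0.81, edgeR). The call was lost without P21 library 2 (+0.53), without saline library 12 (+0.56) and with no filter on low counts (+0.55).

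In endothelial cells Abhd6 had 40.0, 56.3 and 58.4 CPM at P21 and 31.0 to 42.5 CPM in the saline P60 libraries, again overlapping. The means were 51.5 ± 10.1 CPM (SD, n = 3) and 36.1 ± 5.06 CPM (SD, n = 6), and Abhd6 fell by 0.64 on the log2 scale (SE 0.16, adjusted p = 0.0104, edgeR). Without P21 library 2 or 3 it was no longer called (-0.56 and -0.54). Mural markers in this class summed to 3973 to 5107 CPM at P21 and 5057 to 7363 CPM in the saline libraries, and endothelial markers to 3645 to 8606 CPM at P21, with the highest in library 1. Their part was not tested.

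In excitatory neurons 2 synthetic enzymes passed the adjusted p but not the fold cutoff. Of all 13245 genes tested there, 5350 passed the adjusted p when no fold was required. Daglb had 33.0 to 37.2 CPM at P21 and 39.4 to 45.1 CPM in the saline P60 libraries, without overlap (+0.36 on the log2 scale, SE 0.085, adjusted p = 0.00502, edgeR). Napepld had 12.9 to 13.5 CPM at P21 and 14.6 to 21.9 CPM in the saline P60 libraries, also without overlap (+0.41, SE 0.13, adjusted p = 0.0265, edgeR). Both differences were under 1.5-fold. The share of all genes whose groups did not overlap was not counted. Of the saline libraries, those of 15 days had 14.9 and 14.6 CPM of Napepld and the others 15.5 to 21.9 CPM. Of the cocaine libraries, those of 15 days had 13.97 and 11.85 CPM and the others 19.2 to 22.5 CPM. The value of 11.85 CPM lay below every P21 library. Cnr1 differed by 0.10 in excitatory neurons (log2, SE 0.14, adjusted p = 0.62, edgeR) and by -0.18 in inhibitory neurons (SE 0.44, adjusted p = 0.82), and Faah by -0.16 in excitatory neurons (SE 0.092, adjusted p = 0.19). None of these 3 passed. The error of Cnr1 in inhibitory neurons was wide, and the clusters that hold most of its UMIs had too few libraries with 10 cells for a test. In Inhib-10 the pooled level was 4645 CPM at P21 (Poisson 95% interval 4331 to 4977) and 2772 CPM at P60. The 3 P21 libraries ran from 4332 to 5751 CPM and the 12 P60 libraries from 1394 to 3934 CPM, some on a single cell. Cnr1 in Inhib-12 was 8573 CPM at P21 (8292 to 8862 over 44 cells), and in Inhib-11 it was 5008 CPM.

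By neuron cluster, 4 of 189 pairs of a member and a cluster were called in 29 clusters, 2 higher and 2 lower at P60, against 10.6% of all gene and cluster pairs. Cnr1 rose by 1.44 on the log2 scale in Exc-19, a Foxp2 cluster with little Cnr1 (SE 0.40, adjusted p = 0.0107, edgeR). There P21 libraries had 8.65, 3.72 and 5.78 CPM and saline P60 libraries 7.75 to 32.3 CPM, which overlapped. These levels are near the mean of 24.7 CPM in P60 astrocytes, and the part of free RNA was not tested. Daglb rose by 0.95 in Exc-18 (SE 0.29, adjusted p = 0.0468, edgeR), from 25.8 to 35.6 CPM at P21 to 44.3 to 99.4 CPM in 3 saline libraries. Faah fell by 0.65 in Exc-13 (SE 0.22, adjusted p = 0.0417, edgeR) and by 0.73 in Exc-21 (SE 0.24, adjusted p = 0.0339, edgeR). In Exc-13 the P21 libraries had 62.9 to 71.6 CPM and the saline P60 libraries 28.1 to 57.2 CPM of Faah, and in Exc-21 55.4 to 69.4 and 13.1 to 59.4 CPM, which overlapped. Over all clusters tested Faah was higher at P60 in 4 of 28 (median log2 difference -0.32) and Daglb in 24 of 27 (median 0.25), most of them short of the test. Without P21 library 2 no pair was called, and without P21 library 1 there were 12. Faah in Exc-13 kept its call in 1 of 9 settings that left out a library and in 2 of 6 other alternatives, and Faah in Exc-21 in 4 of 9 and 4 of 7. Daglb in Exc-18 kept it in 5 of 9 and 3 of 6, and Cnr1 in Exc-19 in 7 of 9 and 7 of 7, with the losses without P21 library 2 (+1.23) and without saline library 11 (+1.00).

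Cocaine was compared with saline at each Period, with 2 libraries a group. No member was called in any class, in 33 pairs at maintenance, 48 pairs at 48 h and 48 pairs at 15 days by edgeR's quasi-likelihood test, and none by DESeq2. Unadjusted p-values below 0.05 numbered 2, 3 and 2, and the smallest adjusted p-values were 0.73, 0.89 and 0.996. The background was as low at the first 2 Periods, with 0.0115% of all gene and class pairs called at maintenance and 0.00827% at 48 h, and 0.339% at 15 days. The mean over the 3 Periods gave 0 of 48 (0.00496% of all pairs) and the interaction of treatment with Period 0 of 48 (0.00992%), with 3 and 1 unadjusted p-values below 0.05. Median standard errors of the log2 fold change were 0.34, 0.37 and 0.30 for the 3 Periods, and the smallest were 0.11, 0.10 and 0.10. Library 3 held too few astrocytes, precursors and newly formed oligodendrocytes for a test at maintenance.

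Cnr1 in excitatory neurons shows the spread. At maintenance the cocaine libraries had 155 and 119.9 CPM and the saline libraries 110.3 and 117 CPM (+0.24 on the log2 scale, SE 0.13, adjusted p = 0.78, edgeR). After 48 h they had 157 and 139 against 121 and 119 CPM (+0.28, SE 0.12, adjusted p = 0.98), and after 15 days 149 and 132 against 151 and 171 CPM (-0.15, SE 0.12, adjusted p = 0.9998). The cocaine libraries were thus the higher ones at the first 2 Periods and the lower ones at the last, each without overlap. Groups of 2 libraries often separate by chance. The share of all genes that separate in this way was not counted. The interaction had an unadjusted p of 0.0496 and an adjusted p of 0.95 by edgeR.

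Faah in excitatory neurons was at 73.7 and 77.2 CPM with cocaine and 62.3 and 62.4 CPM with saline after 48 h (+0.26, SE 0.10, adjusted p = 0.98, edgeR), which did not overlap. At maintenance it had 70.2 and 71.4 against 70.9 and 65.4 CPM, and after 15 days 83.9 and 78.9 against 69.9 and 79.8 CPM, both with overlap. The mean over Periods was +0.15 (SE 0.059, adjusted p = 0.53, edgeR). Daglb in excitatory neurons differed by -0.32 at maintenance (SE 0.13, adjusted p = 0.73, edgeR). In inhibitory neurons Cnr1 differed by 0.00 at maintenance (SE 0.51), 0.53 at 48 h (SE 0.51) and 0.22 at 15 days (SE 0.48), none past the test.

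**Figure D5:**
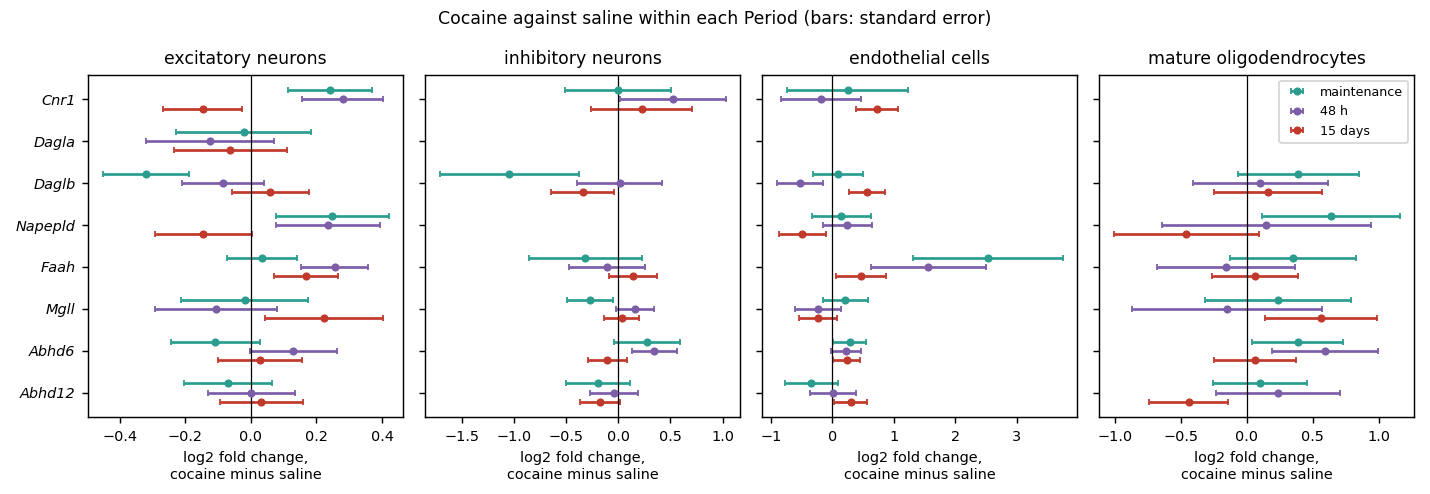
Log2 fold change of cocaine over saline for each of the 8 genes at maintenance, 48 h and 15 days of withdrawal, in excitatory neurons, inhibitory neurons, endothelial cells and mature oligodendrocytes, with bars of 1 SE from edgeR. Panels have their own axis ranges, and genes without a point were not tested. Cnr1 in excitatory neurons lies at +0.24, +0.28 and -0.15, and no point passed the test.

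In neuron clusters the result was the same, with 0 of 112 pairs called at maintenance (15 clusters), 0 of 148 at 48 h (20 clusters) and 0 of 203 at 15 days (29 clusters) by edgeR, and 0 by DESeq2. Unadjusted p-values below 0.05 numbered 7, 9 and 6. Of all gene and cluster pairs, 0.00647%, 0.00554% and 1.22% were called at these Periods.

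The wider pathway was described with 31 genes of endocannabinoid receptors, synthesis, breakdown, transport and signalling, of which 26 could be tested. In the comparison of age 15 of 128 pairs of a gene and a class were called (11.7%), 6 higher and 9 lower at P60, close to the 11.9% over all genes, and the median log2 fold change of the list was 0.05, within the range of the class medians over all genes. The calls fell on 6 genes. In excitatory neurons Gde1, a glycerophosphodiesterase that can release anandamide from its precursor, fell by 1.72 on the log2 scale (SE 0.29, adjusted p = 0.00199, edgeR). There Fabp7, a fatty acid binding protein of radial glia and astrocytes, fell by 1.57 (SE 0.15, adjusted p = 1.44e-05, edgeR), and Naaa, which hydrolyses N-acylethanolamines in lysosomes, rose by 1.40 (SE 0.16, adjusted p = 5.32e-05, edgeR). Both were low in excitatory neurons. Fabp7 had 13.8 to 15.3 CPM there at P21 and 3.49 to 6.04 CPM in the saline P60 libraries. Naaa had up to 3.09 CPM there at P21 and 5.97 to 7.61 CPM in the saline libraries. Astrocytes of the P21 and saline libraries had 282 to 1537 CPM of Fabp7 and 170 to 307 CPM of Naaa. In saline libraries 2 and 5 oligodendrocyte precursors had more Fabp7, at 1213 and 1470 CPM, than astrocytes, at 327 and 407 CPM. The part of free RNA from glia was not tested. Gde1 had 509.5 CPM in P21 library 1, 206 and 197 CPM in the other P21 libraries and 68.3 to 119 CPM in the saline P60 libraries, and without P21 library 1 it fell by 1.125 (SE 0.13, adjusted p = 4.48e-05, edgeR).

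In inhibitory neurons Gde1 fell by 1.45 and Naaa rose by 0.93. Fabp7 fell in 4 further classes, by 1.5 in astrocytes, 5.18 in microglia, 2.31 in mature oligodendrocytes and 2.32 in endothelial cells, and Gde1 fell by 2.35 in mature oligodendrocytes. Without P21 library 1 Gde1 fell by 0.77 in inhibitory neurons and 1.38 in mature oligodendrocytes, and Fabp7 in endothelial cells was no longer called (-2.24, adjusted p = 0.0522, edgeR). In astrocytes, which are known for Fabp7, it had 871 to 1537 CPM at P21 and 282 to 603 CPM in the saline libraries, without overlap. In microglia it had 92.6 to 394 CPM at P21, where astrocyte markers summed to 135 to 867 CPM, and 0 to 13.3 CPM in the saline libraries. The part of these markers was not tested. Ptgs2, the inducible cyclooxygenase that also oxidises endocannabinoids, rose by 2.72 in endothelial cells and 0.68 in excitatory neurons. Its levels were low. In endothelial cells it had 0.42 to 2.43 CPM at P21, 8.40 to 21.8 in the saline libraries and 1.68 to 37.2 in the cocaine libraries. In excitatory neurons it had 3.66 to 4.31 CPM at P21, 4.75 to 8.09 with saline and 3.33 to 7.63 with cocaine. Pla2g16, a phospholipase that can act as an N-acyltransferase, rose by 2.22 in newly formed oligodendrocytes and 0.60 in endothelial cells. All of these calls were made by edgeR with adjusted p below 0.05.

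With cocaine 3 of 153 pairs of the list were called at 15 days (against 0.339% of all genes) and none at the other Periods. All 3 were Gde1, higher with cocaine. In excitatory neurons it had 227 and 194 CPM with cocaine and 87.3 and 119 CPM with saline (+1.08 on the log2 scale, SE 0.19, adjusted p = 0.0224, edgeR). In mature oligodendrocytes it had 348 and 235 CPM against 88.8 and 117 CPM (+1.51, SE 0.23, adjusted p = 0.000566, edgeR), and in inhibitory neurons the difference was +1.08 (SE 0.22, adjusted p = 0.0150). DESeq2 called 1 of the 3. Short of a call, Gde1 was higher with cocaine in astrocytes too (98.4 and 142 against 67.4 and 53.1 CPM). The same held in microglia (95.9 and 76.9 against 59.9 and 26.6 CPM) and newly formed oligodendrocytes. Endothelial cells had 78.2 and 79.4 against 45.9 and 53.1 CPM. Precursors went the other way (51.3 and 79.9 against 96.9 and 97.6 CPM). At 15 days all 93 genes called in excitatory neurons and 54 of 73 in inhibitory neurons were higher. A shift of whole libraries was not tested. The second cannabinoid receptor gene, Cnr2, had 5 UMIs in P60 microglia (1.2 ± 1.65 CPM, SD, n = 12) and none in P60 neurons or astrocytes. Cnrip1, whose product binds the tail of CB1, had 332 ± 18.3 CPM in excitatory neurons, and inhibitory neurons had 310 ± 45.5 CPM (SD, n = 12), with overlapping ranges.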

How the data were processed

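Single-cell counts were analysed from 12 libraries of P60 and 3 of P21 prefrontal cortex. The deposited matrices hold counts of UMIs per gene and cell, made by the authors with Cell Ranger on mm9 (per the submitters' processing notes), and the deposited cell tables hold the cells kept after the authors' filtering and clustering with Seurat (2.1.0), with cluster, class and a mitochondrial fraction per cell, of which the fraction was not used. The authors' filter on cells was kept and no doublet caller was run here. The members and gene lists were chosen with earlier results of these data known. After 13 mitochondrial and 143 ribosomal protein genes had been left out, UMIs were summed per library and class or cluster, where at least 10 cells were present, over 25989 genes. The class was that of the cluster name, which differed from the class column for 492 cells. These were 256, 96 and 107 cells in P21 libraries 1, 2 and 3 and at most 11 in any P60 library. Uncertain classes thus moved with age. Libraries held 8375172 to 42892922 UMIs, and Poisson intervals and floors of 3 counts cover counting error only.

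Age (saline P60 minus P21) and cocaine minus saline (1 mean per group of treatment and Period) were tested with edgeR 4.0.16 (quasi-likelihood, TMM, filterByExpr, robust) in R 4.3.3 with limma 3.58.1, on all genes, with Benjamini-Hochberg adjustment. Calls required an adjusted p below 0.05 and more than 1.5-fold. For age the authors' negative binomial model took single cells as units. For cocaine they used the SC2P model, which tests changes among the cells in which a gene is on. Here libraries were the replicates in both comparisons, and all cells of a type were summed. Neighbouring classes were compared with two-sided exact sign-flip permutation tests, adjusted over 56 pairs, in Python 3.11.15 with numpy 2.4.6, pandas 2.3.3 and scipy 1.17.1, and figures were drawn with matplotlib 3.10.9. The scripts were tested on simulated data. Named were all 8 members, the 3 called pathway genes with the largest change in each comparison, and the 3 genes most like each member by Pearson's r of log2(CPM + 1), with a mean of at least 10 CPM. Some genes that this rule selects are not reported here. Cnr2, Cnrip1 and the fourth called gene of excitatory neurons, Ptgs2, were added with their values known. Tried as alternatives were DESeq2 1.42.0, its size factors, no filter on low counts, at least 30 cells, the removed genes kept, no fold cutoff, other groupings of P21 and P60 libraries, and leaving out each library.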

Additional observations from a re-analysis of the deposited data

Results flagged for a closer look

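In each group of saline libraries (at most 6) the highest and the lowest level of each member was set against the rest of its group by Dixon's test. Of 63 groups 8 held a library far from the others, and chance alone marks about 1 in 20 groups. Cnr1 in inhibitory neurons was 2230.0 CPM in P60 library 3, in which 10 of 28 inhibitory cells belonged to Inhib-10, Inhib-11 or Inhib-12. Dagla in excitatory neurons was 28.87 CPM in P60 library 2, the shallowest library. The other values of Dagla rested on few molecules, namely 5.515 CPM in mature oligodendrocytes of library 7 (1 UMI), 18.43 CPM in microglia of library 11 (4 UMIs) and 0 CPM in oligodendrocyte precursors of library 5, where a count of 0 over 53 cells allows up to 19.9 CPM. Daglb in mature oligodendrocytes was 49.64 CPM in library 7 (9 UMIs). Abhd12 was 133.6 CPM in inhibitory neurons of library 2, which held 19 such cells, and 197.8 CPM in microglia of library 7.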

How the results depend on the processing

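No call changed sign under any alternative. The 3 member and class pairs called between P21 and saline P60 became 5 with at least 30 cells, 5 with the authors' class column (an alternative chosen after seeing the data), 6 without the fold cutoff, 2 with P21 libraries 2 and 3 summed, with all 12 P60 libraries or with no filter on low counts, and 1 to 5 when a library was left out, and Mgll in mature oligodendrocytes was called in each of these settings. Abhd6 in endothelial cells was not called with P21 libraries 2 and 3 summed, as if they shared mice (-0.57), with all 12 P60 libraries (-0.51) or with the authors' class column (-0.58), and the cause was not tested. The 4 member and cluster pairs became 1 with DESeq2, 1 with P21 libraries 2 and 3 summed, 2 with at least 30 cells, 7 without the fold cutoff and 0 to 12 when a library was left out. Without P21 library 1 there were 12, and without P21 library 2 there were 0. For cocaine in clusters the count was 0 to 1 when a library was left out. The 1 call was Cnr1 in Inhib-7 without cocaine library 6, which left 1 cocaine library at 48 h, assumed to vary like the other groups. In classes it stayed at 0 in every setting. The 3 calls of the pathway list at 15 days became 1 with DESeq2, and the 15 of age became 20 without P21 library 1. The 13 neighbouring classes that differed became 0 with only the 6 saline libraries, a setting whose smallest p is 0.03125. With at least 30 cells 10 pairs differed, among them 8 of the 13. The cluster with the highest level was the same for 3 of 8 members with only the saline libraries and for 4 of 8 by the thinned share of cells with a UMI. Depth limits the low genes most, since Dagla could be tested by age in 2 classes and Napepld in 3. No paired analysis was possible because the sample numbers run through the whole series and pair no cocaine library with a saline library or a P21 library.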
